A study of Mus musculus with 9 samples.

Results

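Histones are the proteins around which DNA is wound, and their genes were followed here in innate lymphoid cells (ILCs) sorted from mouse skin. Every probe set of the array that carries a linker or core histone gene among its platform symbols was taken, which gave 69 of 24922 probe sets, naming 75 histone genes of 21145 genes named on the array. The rule used names only and no measured value. By gene name, 53 sets stand for clustered, replication-dependent histones, 14 for replacement histones, and 2 list genes of both kinds. Of the 69 sets, 38 carry 1 gene symbol and 31 carry several, because the coding parts of these genes are nearly alike. Sets with several symbols are described below by family and number of symbols, not by gene.

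The 9 arrays fall into 4 groups. There were 2 Rag1-/- GFP+, 3 Rag1-/- GFP-, 2 Rag1-sufficient GFP+ and 2 Rag1-sufficient GFP- samples, where Rag1-sufficient is the name used here for mice whose label gives no Rag1 deletion. All were female B6 mice labelled CCR10+/EGFP, a genotype in which green fluorescence (GFP) reports the chemokine receptor CCR10, and cells were sorted from skin as CD45.2+, CD3- and lineage-negative. Rag1-/- mice lack the recombinase that builds T and B cell receptors, and such mice are known to lack mature T and B cells. The mice's ages, and whether a sample pooled several animals, are not given in the sources used here. Nothing in the labels says that replicates came from separate animals, so p-values measure no more than the variation between arrays of a group, some or all of it possibly technical. In bulk samples of this kind, fewer cells of a type and less RNA per cell cannot be told apart.

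Clustered histone genes are made in S phase, when new DNA has to be packed. Their genes lie together in the genome, mostly lack introns, and give messages that end in a stem-loop instead of a poly(A) tail. The core histones H2A, H2B, H3 and H4 form the nucleosome, and the linker histone H1 sits on the DNA between nucleosomes. Replacement histones such as H2A.Z, H2A.X and H3.3 are made outside S phase too, from genes with ordinary poly(A) messages, and enter chromatin at promoters, at damaged DNA or during transcription. How the messages were primed for labelling is not given in the sources used here.

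Many clustered histone sets were higher in Rag1-sufficient GFP+ cells than in Rag1-sufficient GFP- cells, and fewer were lower in Rag1-/- GFP+ than in Rag1-sufficient GFP+ cells. Levels are the intensity of a probe set, its brightness on the array, and differences are between group means of log2(intensity + 1). The comparison of GFP+ with GFP- cells is called the gate below. Over the 49 clustered sets that passed a filter on dim signal, the median difference between GFP+ and GFP- cells of Rag1-sufficient mice was 0.66 on the log2 scale, or 1.58-fold, where the median over all 17445 tested sets was 0.01. In this comparison 25 clustered sets were higher and none lower at an adjusted p under 0.05 (limma, Benjamini-Hochberg over all tested sets), beside 0.332% of all tested sets that were higher. Between Rag1-/- GFP+ and Rag1-sufficient GFP+ cells, 18 clustered sets were lower, beside 0.195% of all tested sets, with a median over the 49 sets of -0.67. None was higher, beside 0.0516% of all. The count of 18 was 0 after quantile normalization, without the variance trend, in a fit of the 2 groups alone and with the replicate number as a block. All 18 were among the 25, and the Rag1-sufficient GFP+ pair of arrays serves in both comparisons. No replacement set passed the threshold in either comparison.

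The medians of each array show the same order. Over the 49 clustered sets, the median intensity was 841 and 1135 on the Rag1-/- GFP+ arrays, 1014, 1233 and 1186 on the Rag1-/- GFP- arrays, 2038 and 1886 on the Rag1-sufficient GFP+ arrays, and 966 and 939 on the Rag1-sufficient GFP- arrays. Both Rag1-sufficient GFP+ arrays stood above all 7 others, and the remaining 3 groups lay close to one another. On the log2 scale the pooled SD of these medians within groups was 0.17. The 12 tested replacement sets had log2 medians of 10.02 and 10.30 on the Rag1-/- GFP+ arrays, 10.18, 10.15 and 10.65 on the Rag1-/- GFP- arrays, 10.52 and 10.30 on the Rag1-sufficient GFP+ arrays, and 10.06 and 10.05 on the Rag1-sufficient GFP- arrays. For replacement sets the highest array was Rag1-/- GFP- replicate 3, and the Rag1-sufficient GFP+ arrays did not stand apart.

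**Figure D1:**
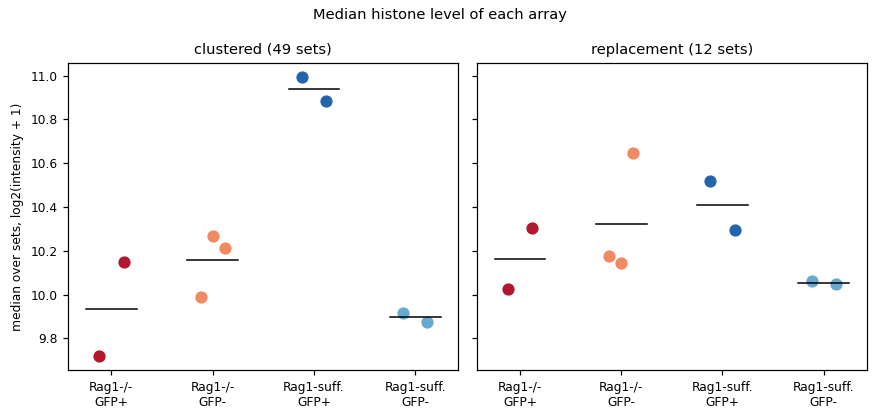
Median log2(intensity + 1) of the 49 clustered (left) and 12 replacement (right) histone sets on each array, by group, with 1 point per array and a bar at the group mean. The Rag1-sufficient GFP+ arrays lie at 10.99 and 10.88 for clustered sets, above every other array, and at 10.52 and 10.30 for replacement sets, where Rag1-/- GFP- replicate 3 lies higher at 10.65.

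The sets do not count as 49 separate readings. Together the 69 sets carry 48 different lists of symbols, and 42 of those lists passed the filter. There were 10 H3 sets with 1 list of 12 H3 genes, whose values over the 9 arrays correlated pairwise at r = 0.983 or more. Likewise 4 H4 sets share a list of 11 genes, 3 H2B sets a list of 15 and 3 others a list of 14. Counted by list, 12 lists were higher in GFP+ than GFP- cells of Rag1-sufficient mice, and 5 were lower in Rag1-/- GFP+ than Rag1-sufficient GFP+ cells. Among the 26 tested clustered sets with 1 symbol, the counts were 8 and 2. A set with 1 symbol may also read near-identical genes of its family, which could not be examined without probe sequences.

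H2B, a core histone, held the largest differences with the gate in Rag1-sufficient mice. Of its 15 tested sets 11 rose in GFP+ against GFP- cells of Rag1-sufficient mice, with a family median of 0.90. H2bc14 (Hist1h2bm, chr13:21722044-21722526) read 841 and 1083 in GFP+ against 1014, 1144 and 887 in GFP- cells of Rag1-/- mice, and 2392 and 2270.4 in GFP+ against 840.2 and 711 in GFP- cells of Rag1-sufficient mice. Rag1-sufficient GFP+ cells alone were high, and the other 3 groups overlapped or nearly so. The difference between GFP+ and GFP- was -0.08 ± 0.17 (SE) in Rag1-/- mice, and 1.59 ± 0.19 in Rag1-sufficient mice, with adjusted p = 0.0101 by limma. H2bc14 fell by 1.29 ± 0.19 in Rag1-/- GFP+ against Rag1-sufficient GFP+ cells (limma adjusted p = 0.0401).

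H2bc3 (Hist1h2bb, chr13:23746734-23747223) read 234 and 232 in GFP+ against 214, 241 and 239 in GFP- cells of the Rag1-/- genotype. With Rag1 intact, the readings were 481 and 396 in GFP+ against 174 and 136 in GFP- cells. Its Rag1-/- arrays thus lay between the GFP+ and GFP- arrays of Rag1-sufficient mice. It rose by 1.501 ± 0.168 with the gate in Rag1-sufficient mice (limma adjusted p = 0.0101), and its difference between Rag1-/- and Rag1-sufficient GFP+ cells was -0.90 (limma adjusted p = 0.116). H2bc9 read 2038 and 1886 in Rag1-sufficient GFP+ against 966 and 848 in Rag1-sufficient GFP- cells, a rise of 1.11 ± 0.16 (limma adjusted p = 0.0221). H2bc1, a germ-line H2B that replaces the usual form in the testis, rose by 1.08 ± 0.15 from dim signal, at 188 and 209 in Rag1-sufficient GFP+ against 104 and 83.2 in Rag1-sufficient GFP- cells. H2bu2 rose by 0.46 ± 0.08. The 6 H2B sets with lists of 14 and 15 genes rose by 0.852 to 1.005, with limma adjusted p between 0.0101 and 0.0178.

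The remaining 4 H2B sets did not pass the threshold in that comparison. With the limma adjusted p in parentheses, H2bc22 had 0.75 (0.0898), H2bc8 0.68 (0.147), H2bc18 0.85 (0.366) and H2bc4 0.35 (0.646). H2bc18 had wide spread, at 228 and 392 in Rag1-/- GFP+, 295, 485 and 594 in Rag1-/- GFP-, 741 and 536 in Rag1-sufficient GFP+ and 364 and 336 in Rag1-sufficient GFP- cells. Its GFP- arrays of Rag1-/- mice reached into the range of the Rag1-sufficient GFP+ arrays.

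H2A, the partner of H2B in the nucleosome, had 2 of 5 tested sets higher. H2ac4 (Hist1h2ab, chr13:23751088-23751592) read 66.0 and 87.1 in GFP+ against 78.9, 102 and 94.5 in GFP- cells of Rag1-/- mice, and 182 and 156 in GFP+ against 63.2 and 59.2 in GFP- cells of Rag1-sufficient mice. Only the 2 Rag1-sufficient GFP+ arrays exceeded 102. It rose by 1.45 ± 0.16 with the gate in Rag1-sufficient mice (limma adjusted p = 0.0101) and fell by 1.14 ± 0.16 in Rag1-/- against Rag1-sufficient GFP+ cells (limma adjusted p = 0.0399). H2ac15 (Hist1h2ak) read 5905 and 5748 in Rag1-sufficient GFP+ against 3381 and 3133 in Rag1-sufficient GFP- cells, a rise of 0.84 ± 0.12 (limma adjusted p = 0.0219). H2ac1, a germ-line H2A, had 0.51 (limma adjusted p = 0.220), and H2aw, which lies with H2bu2 in a small group of histone genes on chromosome 11, had 0.27 (limma adjusted p = 0.751).

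**Figure D2:**
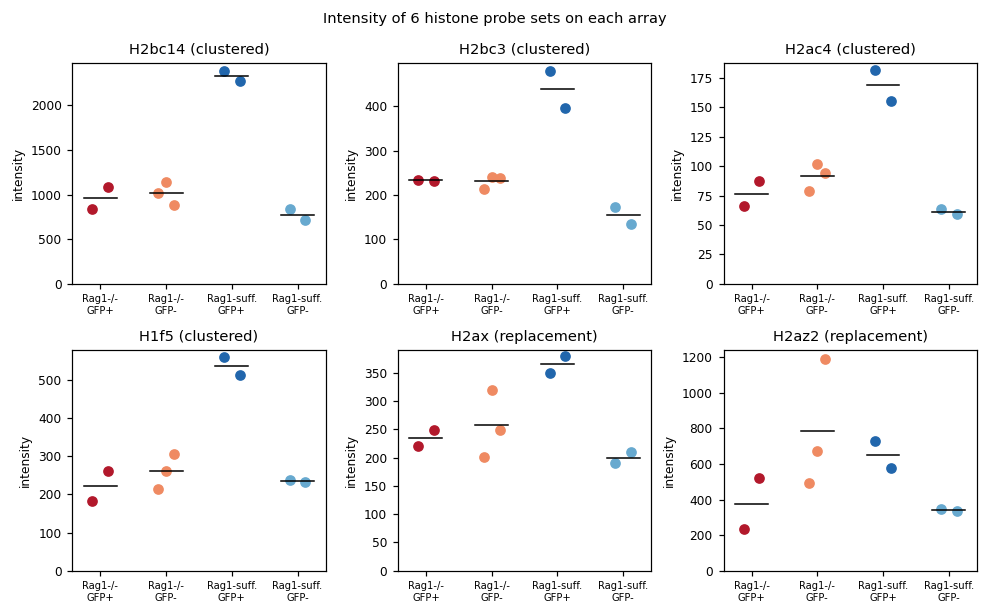
Intensity, on a linear scale from 0, of 4 clustered and 2 replacement histone sets on each of the 9 arrays, with a bar at each group mean. H2bc14, H2bc3, H2ac4 and H1f5 are highest on both Rag1-sufficient GFP+ arrays, while H2az2 is highest on Rag1-/- GFP- replicate 3, at 1191.

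Promoters of these genes are shown because their members moved together and textbook elements of histone promoters can be read in them. For the 37 genes of single-symbol sets, 32 had an entry in RefSeq's promoter table (GRCm38.p6), and the 250 bases before the start were searched on both strands for 4 motifs. The motifs were ATTTGCAT, the octamer known from H2B promoters, AAACACA, known from H1 promoters, CCAAT and TATAAA. No matches overlapped one another in these 32 promoters. Capitals mark every match to any of the 4 motifs, on either strand, so ATTGG is CCAAT on the other strand and ATGCAAAT the octamer on the other strand. The windows are chr13:21721794-21722043 on the plus strand for H2bc14, chr13:23746484-23746733 on the plus strand for H2bc3 and chr13:23750838-23751087 on the plus strand for H2ac4. The linker histone H1f5 has chr13:21780626-21780875 on the minus strand, and H1f10, a replacement linker histone shown for contrast, has chr6:87981483-87981732 on the minus strand.
H2bc14: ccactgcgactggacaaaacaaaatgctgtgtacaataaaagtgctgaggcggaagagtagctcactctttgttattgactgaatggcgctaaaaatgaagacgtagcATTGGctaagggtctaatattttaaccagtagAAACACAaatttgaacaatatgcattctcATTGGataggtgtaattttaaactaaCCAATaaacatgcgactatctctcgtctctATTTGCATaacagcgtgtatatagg
H2bc3: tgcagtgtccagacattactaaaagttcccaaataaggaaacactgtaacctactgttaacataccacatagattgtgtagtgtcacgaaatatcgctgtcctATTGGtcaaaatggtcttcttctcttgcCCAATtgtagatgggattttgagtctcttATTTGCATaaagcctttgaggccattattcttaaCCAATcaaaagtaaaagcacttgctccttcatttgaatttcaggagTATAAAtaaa
H2ac4: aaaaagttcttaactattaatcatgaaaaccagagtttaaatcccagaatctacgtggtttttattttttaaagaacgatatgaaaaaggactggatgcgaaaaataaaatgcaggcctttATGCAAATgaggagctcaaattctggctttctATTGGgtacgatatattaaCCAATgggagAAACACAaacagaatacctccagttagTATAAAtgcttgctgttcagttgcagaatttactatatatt
H1f5: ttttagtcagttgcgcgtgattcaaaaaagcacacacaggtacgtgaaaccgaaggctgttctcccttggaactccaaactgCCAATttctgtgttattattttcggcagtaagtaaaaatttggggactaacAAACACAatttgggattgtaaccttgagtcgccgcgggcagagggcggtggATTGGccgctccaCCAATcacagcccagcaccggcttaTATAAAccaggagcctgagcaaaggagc
H1f10: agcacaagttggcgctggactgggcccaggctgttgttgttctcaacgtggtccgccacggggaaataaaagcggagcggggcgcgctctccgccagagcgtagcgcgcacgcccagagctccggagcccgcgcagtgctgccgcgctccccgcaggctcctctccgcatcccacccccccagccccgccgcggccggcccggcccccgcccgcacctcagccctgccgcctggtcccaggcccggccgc
The octamer occurred in 9 of the 32 histone promoters, where 1.6% of the table's 32851 promoters hold it. These were 4 of 5 H2A and 5 of 8 H2B promoters, and none of the H1, H3, H4 or replacement promoters. In H2bc14 the match covers bases 25 to 18 before the start. H2ac1 and H2bc1, and likewise H2ac8 and H2bc8, start back to back, so each pair shares 1 octamer. AAACACA occurred in 9 promoters, among them 4 of 5 H1 promoters, against 6.25% of all, CCAAT in 25 against 33.8%, and TATAAA in 15 against 12.4%. H1f10 held none of the 4, and neither did H1f7 or the clustered genes H3c15, H4c8 and H4f16. With the gate in Rag1-sufficient mice, H1f10 and H1f7 had 0.03, H4c8 0.57 and H4f16 0.72, and H3c15 was too dim to test. A match is a description, not a site or a cause. Among tested clustered genes, the 8 with an octamer had a median difference of 0.97 between GFP+ and GFP- cells of Rag1-sufficient mice, with 4 higher, and the 16 without had 0.69, also with 4 higher. Only H2A and H2B promoters among the 32 held the octamer, so this gap is also one between families, and it was not tested. The tested H2A and H2B genes without an octamer were H2bu2, H2ac15, H2bc22 and H2bc9. They had 0.46, 0.84, 0.75 and 1.11 in the same comparison, and all but H2bc22 were called higher.

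Of the 11 tested H3 sets 10 passed in both comparisons. All 10 sets with the 12-gene list were higher in GFP+ than GFP- cells of Rag1-sufficient mice, by 0.63 to 0.75, and lower in Rag1-/- than Rag1-sufficient GFP+ cells, with differences of -0.71 to -0.65 (limma adjusted p from 0.0162 to 0.0387). In 1 of them the values were 4380.3 and 4694 in Rag1-/- GFP+, 4694, 4674 and 4667 in Rag1-/- GFP-, 6807 and 7457 in Rag1-sufficient GFP+, and 4604 and 4579 in Rag1-sufficient GFP- cells. The 7 arrays outside the Rag1-sufficient GFP+ group lay within 4380.3 to 4694. The only tested H3 set with 1 symbol, H3c4, had 0.47 (limma adjusted p = 0.369).

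H4, the most conserved core histone, had 2 of 12 sets higher with the gate. H4c4 (Hist1h4d, chr13:23581568-23581969) read 5697 and 7349 in Rag1-/- GFP+, 6852, 7797 and 8308 in Rag1-/- GFP-, 10460 and 9976 in Rag1-sufficient GFP+, and 6135 and 6105 in Rag1-sufficient GFP- cells. It rose by 0.74 ± 0.13 in GFP+ against GFP- cells of Rag1-sufficient mice (limma adjusted p = 0.0422). A set with 2 H4 symbols rose by 1.10 ± 0.12 (limma adjusted p = 0.0101). The 4 sets with the 11-gene list had 0.55 to 0.63, with limma adjusted p between 0.0688 and 0.104. No H4 set passed the threshold between Rag1-/- and Rag1-sufficient GFP+ cells, where the family median was -0.52.

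Clustered linker histones, which compact the fibre between nucleosomes, had no set past the threshold. H1f5 (Hist1h1b, chr13:21779832-21780625) came closest, at 182 and 261 in Rag1-/- GFP+, 213, 261 and 307 in Rag1-/- GFP-, 559 and 512 in Rag1-sufficient GFP+, and 237 and 234 in Rag1-sufficient GFP- cells. Its Rag1-sufficient GFP+ arrays stood well clear of the rest, with a difference of 1.18 ± 0.22 from GFP- cells (limma adjusted p = 0.0579) and of -1.29 ± 0.22 for Rag1-/- against Rag1-sufficient GFP+ cells (limma adjusted p = 0.0800). For the gate in Rag1-sufficient mice, with the limma adjusted p in parentheses, H1f1 had 0.66 (0.254), H1f2 0.40 (0.754), H1f3 0.31 (0.412) and the testis form H1f6 0.14 (0.803). H1f2 ran from 782 to 1649 within the Rag1-/- GFP+ pair and reached 2385 in Rag1-/- GFP- replicate 3, so its Rag1-/- groups overlapped. In Rag1-sufficient mice it read 1998 and 1604 in GFP+ against 1392 and 1330 in GFP- cells.

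Replacement histone sets had a median nearer 0 than clustered sets with the gate in Rag1-sufficient mice. The same held between Rag1-/- and Rag1-sufficient GFP+ cells. It did not hold for the gate in Rag1-/- mice, with medians of -0.14 for replacement and -0.12 for clustered sets. Nor did it hold between Rag1-/- and Rag1-sufficient GFP- cells, with 0.17 for replacement and 0.15 for clustered sets. None of the 12 tested replacement sets passed the threshold in any comparison. Their median difference between GFP+ and GFP- cells of Rag1-sufficient mice was 0.31, with all 12 above 0. H2ax, whose protein is phosphorylated at DNA breaks and whose message is known to come in both a replication-linked and a poly(A) form, had the smallest p. It read 221 and 249 in Rag1-/- GFP+, 201, 320.2 and 249 in Rag1-/- GFP-, 349 and 380.3 in Rag1-sufficient GFP+, and 190.1 and 209.5 in Rag1-sufficient GFP- cells. The difference with the gate in Rag1-sufficient mice was 0.86 ± 0.21 (limma adjusted p = 0.127).

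H2az2, 1 of the genes for H2A.Z, followed another order. It read 236 and 519 in Rag1-/- GFP+, 494, 676 and 1191 in Rag1-/- GFP-, 727 and 575 in Rag1-sufficient GFP+, and 346 and 338 in Rag1-sufficient GFP- cells. The GFP- arrays of Rag1-/- mice lay above those of Rag1-sufficient mice, with a difference of 1.10 ± 0.40 (limma adjusted p = 0.236). The difference between GFP+ and GFP- was -1.07 ± 0.40 in Rag1-/- mice (limma adjusted p = 0.688) and 0.92 ± 0.44 in Rag1-sufficient mice (0.444). The 2 sets of H2az1, the other H2A.Z gene, had 0.28 and 0.32 with the gate in Rag1-sufficient mice.

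H3.3 is made from H3f3a and H3f3b, and each of its 6 tested sets carries 1 of these genes with 1 other symbol. The 4 sets with H3f3a had 0.30 to 0.36 and the 2 with H3f3b 0.07 and 0.16, all with limma adjusted p above 0.46. Linker histones outside the clusters differed least. H1f10 read 125 and 104 in Rag1-/- GFP+, 105, 106 and 107 in Rag1-/- GFP-, 134 and 117 in Rag1-sufficient GFP+, and 132 and 114 in Rag1-sufficient GFP- cells, and H1f7, a testis form, had a difference of 0.03 ± 0.10 with the gate. The 2 sets that list H2ax among clustered H2A genes had 0.50 and 0.62 with the gate in Rag1-sufficient mice, and neither passed (smallest limma adjusted p = 0.0508). The 6 of the 69 sets too dim to test were H3c7, H2ac8, H2bc21, H3c15, H1f8 and the single-symbol set of H3f3a.

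**Figure D3:**
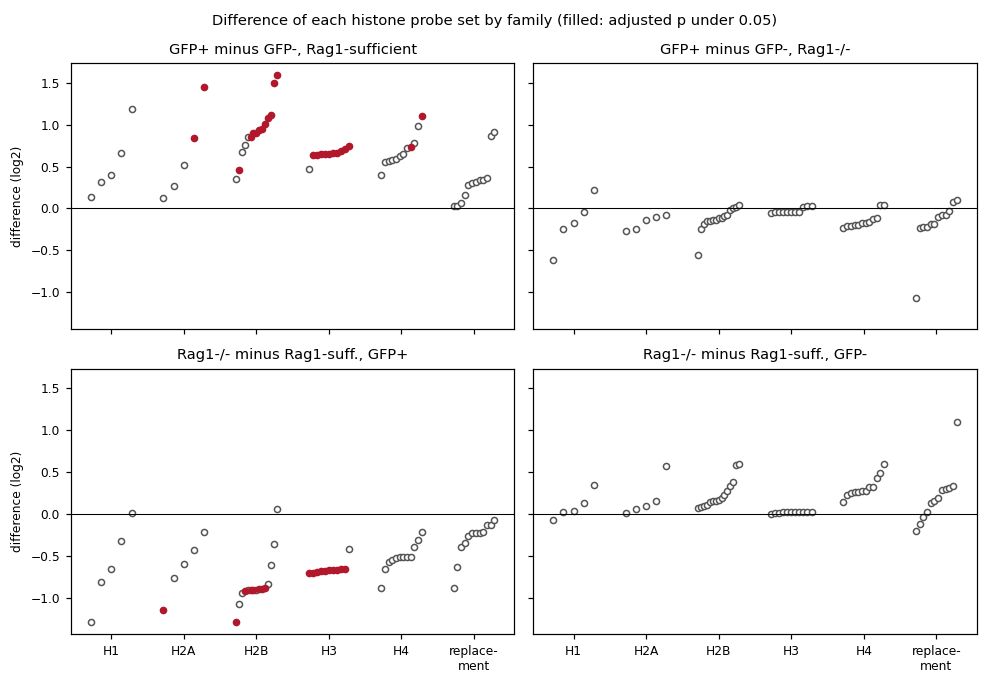
Log2 difference of every tested clustered set by family, and of the 12 replacement sets, in 4 comparisons, with 1 point per set and filled points at adjusted p under 0.05. Filled points occur in the left panels only, and clustered sets span 0.12 to 1.59 for GFP+ minus GFP- in Rag1-sufficient mice. The 1 set listing both H1 and H2B genes and the 2 sets listing both kinds of histone are not drawn.

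In the Rag1-sufficient gate comparison, all 49 clustered sets had both GFP+ arrays above both GFP- arrays, where 29% of all tested sets did. Of the 12 replacement sets 10 did too. For Rag1-/- against Rag1-sufficient GFP+ cells, 46 of 49 had both Rag1-/- arrays below, where 18.5% of all sets did. Among the 12 replacement sets 8 did. Those counts repeat shared lists and shared arrays, as above. In 4 tested histone sets all arrays of some group held equal values, as H2bu2 did in Rag1-/- GFP+ cells, which understates the spread. The calls rest on few arrays. Leaving out any 1 of the 4 Rag1-sufficient arrays left 0 or 1 histone set called for the gate, with the median over clustered sets at 0.65 to 0.71. For Rag1-/- against Rag1-sufficient GFP+ cells the count was 0 without any 1 of those 4 arrays, without Rag1-/- GFP+ replicate 1 or without Rag1-/- GFP- replicate 2, and the median stayed between -0.72 and -0.61. After quantile normalization the median was -0.52.

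In Rag1-/- mice no histone set passed the threshold between GFP+ and GFP- cells, where the share called over all tested sets was 0%. An unadjusted p under 0.05 was held by 1 of 63 histone sets, as by 1098 of 17445 sets in all. The clustered median was -0.12, with 40 of 49 sets below 0, and it turned to 0.008 after quantile normalization. No clustered set had its groups apart, where 5.27% of all tested sets were higher and 10.1% lower without overlap. H4c4, with the smallest p among single-symbol clustered sets, had -0.24 ± 0.12 (limma adjusted p = 0.688). Without Rag1-/- GFP+ replicate 1 the clustered median was -0.003.

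Rag1-/- and Rag1-sufficient GFP- cells also had no histone set past the threshold, beside 0.143% of all tested sets called in either direction (0.0516% higher and 0.0917% lower), and 10 of 63 had an unadjusted p under 0.05, as did 3014 of 17445 sets in all. The clustered median was 0.15, with 48 of 49 above 0 as deposited and 27 of 49, at a median of 0.01, after quantile normalization. Groups were apart with Rag1-/- higher in 29 of the 49, where 23% of all tested sets were. Many of these sets share symbol lists, and with 1 set per list the count was 15 of 33. Among clustered sets with 1 symbol it was 11 of 26. The 3 largest differences among clustered sets were those of H2bc4, at 0.59 ± 0.22, H4c3, at 0.59 ± 0.29, and H2bc3, at 0.59 ± 0.15 (limma adjusted p = 0.238, 0.334 and 0.162). With array weights 5 of 63 histone sets passed, where 1168 of 17445 tested sets did.

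Whether the gate's difference itself differed by genotype was tested as an interaction. No set passed, histone or other (0%), and the smallest adjusted p over all tested sets was 0.0723. That p belonged to H2ac4, H2bc14 and H2bc3 among others, whose gate differences in Rag1-/- minus those in Rag1-sufficient mice were -1.71 ± 0.22, -1.67 ± 0.25 and -1.49 ± 0.23. Of the 63 histone sets, 44 had an unadjusted p under 0.05, as did 2378 of 17445 sets in all. The clustered median was -0.79, and -0.57 after quantile normalization. With array weights 13 histone sets passed, where 31 of all 17445 tested sets did. Without Rag1-/- GFP+ replicate 2 the clustered median was -0.94.

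By position, the single-symbol clustered genes fell into 6 groups separated by more than 200 kb. The 4 tested genes at chr13:21722044-21801561, which include H2bc14 and H1f5, had a median difference of 1.01 with the gate in Rag1-sufficient mice, and the 16 at chr13:23531044-23934913 had 0.67, with a range of 0.140 to 1.501. Of these, 2 and 5 were called higher. Outside chromosome 13, H2bu2 on chromosome 11 was the only one of these single-symbol sets called, while H2bc18 and H4c14 on chromosome 3 and H4f16 on chromosome 6 did not pass.

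Genes of DNA replication and histone supply had medians nearer 0 than the clustered histone sets, a gap that was not tested. Among 24 tested S phase genes of 26 listed, 1 rose with the gate in Rag1-sufficient mice, beside 0.332% of all tested sets. This was the clamp loader subunit Rfc4, at 1.79 ± 0.27 (limma adjusted p = 0.0256). It read 135 and 191 in Rag1-/- GFP+, 158, 188 and 277 in Rag1-/- GFP-, 377 and 348 in Rag1-sufficient GFP+, and 91.5 and 118 in Rag1-sufficient GFP- cells. The S phase median was 0.36, with 22 above 0, beside 0.01 over all tested sets. Among 19 tested histone chaperones of 21 listed, 1 rose, beside the same 0.332% of all tested sets, at a list median of 0.13. This was Asf1b, which hands H3 and H4 to the assembly machinery, at 1.09 ± 0.19 (limma adjusted p = 0.0477). Its levels were 203 and 282 in Rag1-/- GFP+, 273, 282 and 318 in Rag1-/- GFP-, 448 and 546 in Rag1-sufficient GFP+, and 238 and 227 in Rag1-sufficient GFP- cells.

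No gene of the 13 tested histone processing genes passed, and their median was 0.09. The smallest p were those of E2f2, a transcription factor of the cell cycle, at 0.39 ± 0.10 (limma adjusted p = 0.153), and Cpsf2, a subunit of the machinery that cuts message ends, at 0.33 (0.208). Slbp, which binds the stem-loop of histone messages, had 0.67 ± 0.23 (0.269). None of the 3 other tested histone variants passed, with Cenpa, the centromeric H3, at 0.34 (0.421) and Macroh2a1 at 0.07 (0.949). Between Rag1-/- and Rag1-sufficient GFP+ cells no gene of these 4 lists passed, with medians of -0.35 for S phase, -0.11 for chaperones and -0.06 for processing genes. The smallest p there was that of Chaf1b, a subunit of the assembly factor CAF-1, at -0.75 ± 0.12 (limma adjusted p = 0.0570), followed among chaperones by Asf1b at -1.04 (0.111). The smallest p in the S phase list were those of the helicase subunit Mcm5, at -0.57 (limma adjusted p = 0.280), and the DNA polymerase subunit Pola1, at -0.59 (0.282). Among processing genes they were those of Cpsf2, at -0.30 (limma adjusted p = 0.541), and Slbp, at -0.64 (0.595).

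**Figure D4:**
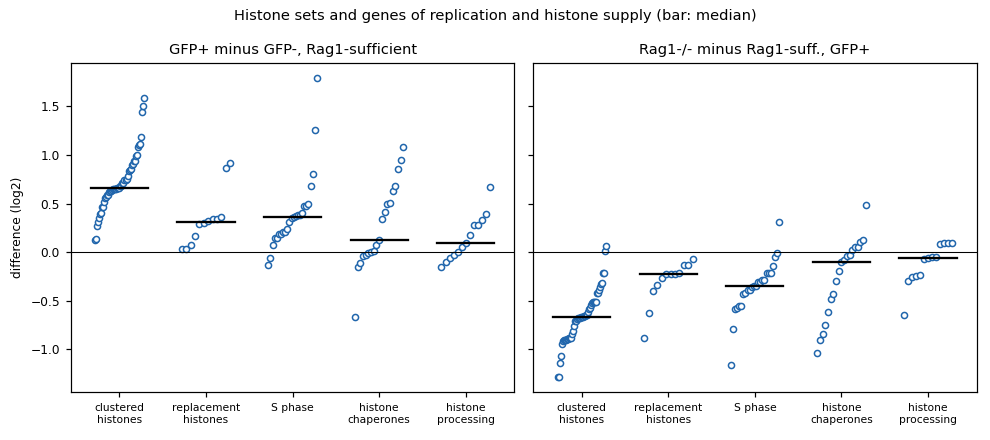
Log2 difference of each tested histone set and of each tested gene of 3 lists for replication and histone supply, with a bar at each median, for GFP+ minus GFP- in Rag1-sufficient mice (left) and Rag1-/- minus Rag1-sufficient in GFP+ cells (right). Clustered histone sets have the medians farthest from 0, at 0.66 and -0.67, and the S phase genes lie at 0.36 and -0.35.

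Of 3 proliferation markers, 1 was called in the same comparisons as H2bc14 and H2ac4, beside 0.332% of all tested sets higher and 0.195% lower. This was Nusap1, a mitotic spindle protein. It read 121 and 135 in Rag1-/- GFP+, 139, 124 and 135 in Rag1-/- GFP-, 287 and 297 in Rag1-sufficient GFP+, and 123 and 109 in Rag1-sufficient GFP- cells, rising by 1.33 ± 0.12 with the gate (limma adjusted p = 0.00843) and falling by 1.19 with Rag1 loss in GFP+ cells (0.0162). Mki67, the Ki-67 antigen, had 0.50 (0.709) with the gate, and its Rag1-sufficient GFP+ replicates were far apart at 175 and 351, and Top2a, the replication topoisomerase, had 0.65 (0.275).

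Array medians ran from 74.1 to 77.6, and the summed level of 6 ILC markers lay between 20306 and 23666 on all arrays. None of the 6 passed with the gate in Rag1-sufficient mice, where Thy1 had 0.64, Gata3 -0.57 and Il2ra -0.65 (limma adjusted p = 0.127, 0.306 and 0.251). Mast cell markers moved with the groups. Their summed level over 11 genes was 4900.5 and 1370 in Rag1-/- GFP+, 6133, 4834 and 4823 in Rag1-/- GFP-, 929 and 1013 in Rag1-sufficient GFP+, and 10504 and 10684 in Rag1-sufficient GFP- cells, and 7 of the 9 tested were lower in GFP+ cells of Rag1-sufficient mice, beside 0.47% of all tested sets. None was listed at 0, and Cpa3, a mast cell protease, read 19.9 in Rag1-/- GFP+ replicate 2 and 20.3 and 21.5 in Rag1-sufficient GFP+ cells. Their part in that gate difference was not tested. Summed T cell markers were 2975 and 5967 in Rag1-/- GFP+, 3965, 4029 and 6248 in Rag1-/- GFP-, 2311 and 1859 in Rag1-sufficient GFP+, and 1465 and 1472 in Rag1-sufficient GFP- cells. Cd3e was higher in Rag1-/- than Rag1-sufficient GFP+ cells (limma adjusted p = 0.0419) although the sort excluded CD3, and the part of these markers was not tested. Macrophage, B cell and erythroid markers summed to at most 366, 402 and 57, the last from the 1 listed gene on the array. Keratinocyte markers summed to 2293 in Rag1-sufficient GFP- replicate 2 and at most 1109 elsewhere. The sum of fibroblast markers ran from 685 in Rag1-/- GFP+ replicate 1 to 1521 in Rag1-sufficient GFP+ replicate 1.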

How the data were processed

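Total RNA of 9 sorted samples was hybridised to Affymetrix one-colour arrays as biotinylated single-stranded DNA, per the labels' protocols. The deposited values are linear intensities, with a single value for each set on each array, and MAS5 is named in the submitters' processing notes with neither version nor role. How arrays were normalized, which genome build was used and detection calls are not given in the sources used here. Intensities were put on the scale log2(value + 1), which understates changes of dim sets, and the dimmest 30% of sets by mean (under 41.6) were left out, leaving 17445. One mean per group was fitted to all 9 arrays with limma 3.58.1 in R 4.3.3 (eBayes, variance trend over intensity, residual df 5, prior df 3.56) and tested two-sided with Benjamini-Hochberg adjustment over all tested sets, at a threshold of 0.05. Differences are estimate ± SE. The fit was tested on simulated data. The number of arrays limits precision. Symbols came from the platform annotation, updated through RefSeq (GRCm38.p6), and a listed gene was read from its brightest set. The members and gene lists were chosen with earlier results of these data known. Named are the 10 single-symbol clustered sets with the smallest p per comparison, all replacement and linker sets, other histone sets needed to account for the families (chosen after their values were seen), and listed genes past the threshold or the 2 with the smallest p. Slbp was named for the gate in Rag1-sufficient mice outside that rule. The gene blocks and the promoters shown were also chosen after values were seen. Tested alternatives were another pseudocount (16), no filter, quantile normalization, no trend, array weights, a fit of the 2 groups alone, a replicate block, single-symbol sets, 1 set per symbol list (chosen after seeing the data) and leaving out each array.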

Additional observations from a re-analysis of the deposited data

Results flagged for a closer look

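A set of 20 symbols, of which 18 are H2A and H3 genes, both clustered and replacement, had opposite differences between GFP+ and GFP- cells in the 2 genotypes, and in each genotype every GFP+ array lay on 1 side of every GFP- array. GFP+ minus GFP- was -0.20 in Rag1-/- mice and 0.50 in Rag1-sufficient mice. Over all tested sets, 10.1% had GFP+ lower without overlap in Rag1-/- mice, and 29% had it higher in Rag1-sufficient mice. The difference of these differences was -0.704 ± 0.134 and did not pass the threshold (limma adjusted p = 0.156).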

How the results depend on the processing

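Clustered medians for the gate in Rag1-sufficient mice and for Rag1 loss in GFP+ cells kept their direction under every alternative run. Without 1 array at a time the medians ran from 0.652 to 0.710 and from -0.725 to -0.615 for these 2 comparisons, from -0.203 to -0.00327 for the gate in Rag1-/- mice, from 0.112 to 0.208 for Rag1 loss in GFP- cells and from -0.938 to -0.687 for the interaction, which was -0.57 after quantile normalization. Counts of called histone sets moved more. The gate in Rag1-sufficient mice gave 42 with array weights (1290 over all sets), 8 with single-symbol sets and 12 with 1 set per symbol list, and 0 to 30 without 1 array at a time. Rag1 loss in GFP+ cells gave 0 after quantile normalization, without the trend, with only the 2 groups and with the replicate block, 2 with single-symbol sets, 5 with 1 set per list, and 0 to 23 without 1 array. With array weights, Rag1 loss in GFP- cells gave 5 (1168 over all sets) and the interaction 13 (31 over all sets). The cause was not tested, except that single-symbol sets and 1 set per list count fewer sets. Deviations of same-numbered arrays correlated between -0.51 and 0.24. In groups of 2 arrays the deviations mirror each other, so this check cannot decide whether the numbers pair the samples. The replicate block gave 17 sets for the gate in Rag1-sufficient mice. Some small differences changed sign. For the gate in Rag1-sufficient mice, the 2 H3f3b sets had -0.0722 and -0.00237 after quantile normalization. In the same comparison, leaving out 1 array at a time gave H1f10 -0.0744 to 0.136 and H1f7 -0.0559 to 0.115. For Rag1 loss in GFP+ cells it gave H1f6 -0.226 to 0.2495 and 1 H3f3b set -0.281 to 0.0131. For the gate in Rag1-/- mice it gave H4c8 -0.318 to 0.0118, H1f6 -0.0131 to 0.462, H1f5 -0.497 to 0.0191 and H2ax -0.268 to 0.0685, and H4c8 had 0.0118 with the replicate block. Quantile normalization shifted the median of all sets by under 0.03 but that of the brightest 10% by -0.13, 0.12, 0.09 and -0.17 in the 4 pairwise comparisons, and many clustered sets are bright. Sets with near-identical genes cannot be told apart by gene.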
